A study of Mus musculus with 8 samples.

Results

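Transcripts of 6 ligands of the epidermal growth factor (EGF) family and of the 4 ErbB receptors were examined in the oviduct of adult female CD-1 mice that had received corn oil (controls) or the soy phytoestrogen genistein (Gen) as newborns. The ligand genes were Egf, Tgfa, Areg, Ereg, Hbegf and Btc, and the receptor genes were Egfr, Erbb2, Erbb3 and Erbb4. All probes that carried one of these gene names in the scanner files were taken, whatever their signal, which gave 25 of the 41174 noncontrol probes on the array. Gen was injected at 50 mg/kg/day on postnatal days (PND) 1 through 5, and the controls had the same injections without Gen. At the age of 6–8 weeks all mice underwent superovulation and mating. The tissue, free of embryos, dates from gestation day 2 (GD2), when 48 hr had passed since the mice received human chorionic gonadotropin (hCG). Each of the 4 arrays per group held RNA of both oviducts of 1 mouse, labeled with 1 dye (Cy3). All mice therefore shared the hormone treatment and mating, and the RNA came from whole oviduct, in which fewer cells of a type and less RNA per cell cannot be told apart.

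EGF family ligands are made as membrane-anchored precursors that proteases of the ADAM family cut from the cell surface. Egf, Tgfa and Areg encode ligands of Egfr, whereas the products of Ereg, Hbegf and Btc bind both Egfr and Erbb4. Erbb2 has no known ligand and acts as the partner of the other receptors, and Erbb3 has a weak kinase and signals through such partners. Bound receptors pair, phosphorylate each other and feed the ERK kinase cascade and the phosphoinositide 3-kinase pathway. In the ovary, the luteinizing hormone surge, which hCG imitates, induces Areg, Ereg and Btc in the follicle, and their products drive the expansion of the cumulus around the oocyte.

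The array read these genes through 60-base probes, and 5 of them are shown because the results below depend on what they match. Areg had a single probe, so its result rests on this stretch at chr5:91129331-91129390 of build mm7, plus strand, printed whole in lower case. For Erbb3, A_51_P342050 (chr10:128073907-128073966, minus strand) and A_51_P488243 (chr10:128073927-128074215, minus strand, a span longer than the probe) share 40 bases, which stand in capitals. The probes A_51_P396034 of Erbb4 (chr1:68321019-68321078, minus strand) and A_51_P216179 of Erbb2 (chr11:98543549-98543608, plus strand) come from a related stretch. In them, capitals mark the bases identical to A_51_P342050 when the sequences were aligned without gaps, 44 of 56 for Erbb4 and 35 of 56 for Erbb2.
Areg A_52_P482897: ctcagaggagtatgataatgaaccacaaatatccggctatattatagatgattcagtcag
Erbb3 A_51_P342050: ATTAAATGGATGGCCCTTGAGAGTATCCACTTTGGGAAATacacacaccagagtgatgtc
Erbb3 A_51_P488243: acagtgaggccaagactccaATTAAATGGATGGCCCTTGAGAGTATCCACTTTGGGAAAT
Erbb4 A_51_P396034: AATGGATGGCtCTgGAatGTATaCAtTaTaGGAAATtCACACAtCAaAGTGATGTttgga
Erbb2 A_51_P216179: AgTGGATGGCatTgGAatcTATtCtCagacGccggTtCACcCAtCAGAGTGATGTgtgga

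Values below are processed signals of the scanner software after each array was scaled to the same 75th percentile, in arbitrary units, and each level can be compared between arrays but not between probes. Differences are log2 fold changes, Gen minus control. A probe was called changed at an adjusted p under 0.05 in limma, with Benjamini-Hochberg adjustment over all 41173 probes that could be tested. The number of probes well above background was between 25391 and 28949 on the control arrays and between 29539 and 31486 on the Gen arrays. The lowest scaled signal that passed this background test was 28.49 to 65.86 on the control arrays and 14.49 to 20.95 on the Gen arrays. A dim signal of the same size could therefore pass on a Gen array and fail on a control array. The 4 arrays of a group shared a slide that held no array of the other group, and therefore an effect of the slide cannot be told apart from one of Gen in any difference given here.

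No EGF family or ErbB transcript that was measured above background on all 8 arrays changed between the groups at the threshold. Of the 25 probes, 15, which covered 9 of the 10 genes, passed the scanner software's background test on every array, and Ereg was the gene without such a probe. In limma, 0 of these 15 probes were called, beside 4.37% of the 24947 probes of the whole array measured that well, and 4 (Egf and 3 of Egfr) had an unadjusted p under 0.05, beside 15.2% of those 24947 probes. Student's t-test, which the study's methods name (the methods' t-test), called 0 as well once Benjamini-Hochberg adjustment was added here. The study's own array analysis, an analysis of variance in other software, was not repeated. Their log2 fold changes ran from −0.53 to 0.63, and 11 of them were above 0. The median was 0.12, against −0.0054 for the 24947 probes. The 95% confidence interval lay within a 2-fold change in either direction for 12 of the 15 probes. The exceptions were Areg A_52_P482897, Egfr A_52_P175190 and Erbb3 A_51_P488243, whose intervals reached past a 2-fold change.

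Counted over all 25 probes, 1 was called, beside 16.2% of all probes tested. This probe, Ereg A_51_P171215, was not well above background on any of the 8 arrays. Probes of that kind were lower in Gen-treated mice across the whole array: the median log2 fold change of 7855 such probes was −1.16, and 4996 of them were called, all lower. When probes were tested only if they were well above background on all 4 arrays of a group, 1.11% of 28966 probes were called, and 0 of the 20 member probes that remained. At an unadjusted p under 0.05 in that fit there were 5 of the 20, beside 19.4% of the 28966 probes.

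**Figure D1:**
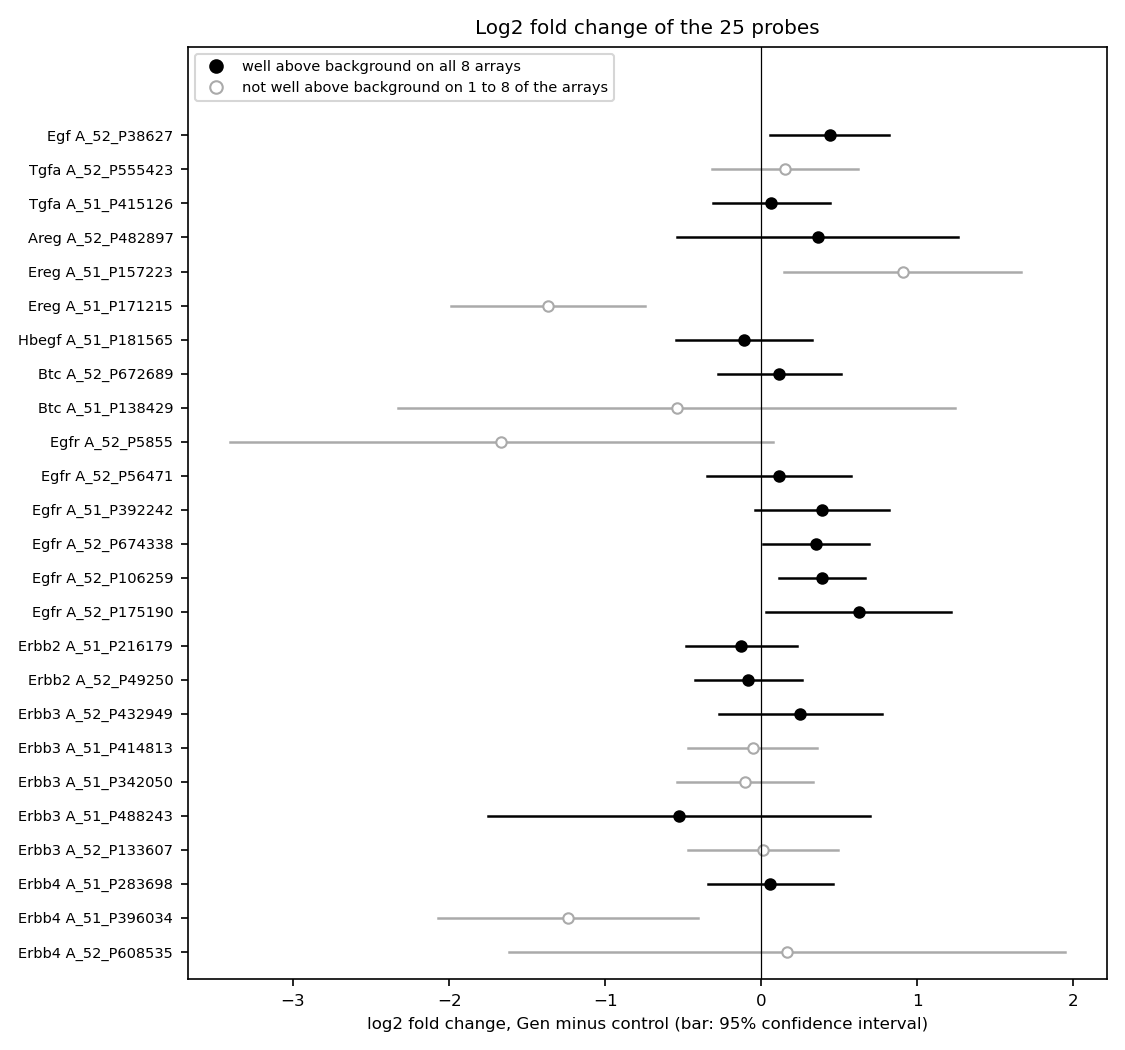
Log2 fold change (Gen minus control) of each of the 25 probes, with its 95% confidence interval from limma, 4 arrays per group. Filled points are the 15 probes measured above background in all 8 mice and lie between −0.53 and 0.63, and open points are the 10 others, which lacked a signal well above background on at least 1 array and lie between −1.67 and 0.91.

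Among the ligands of Egfr alone, Egf had the largest difference relative to its error, without passing the threshold. Its 10-spot probe A_52_P38627 (chr3:129517262-129517321, minus strand) read 152.5, 122.5, 105 and 140.8 in controls 1 to 4, and 143.4, 198.2, 167.5 and 196.2 in Gen-treated mice 1 to 4. Gen 2, Gen 3 and Gen 4 lay above every control, and Gen 1 lay within the control range. The log2 fold change was 0.44 (SE 0.17, 95% confidence interval 0.06 to 0.82), with an adjusted p of 0.124 in limma. The SD of the 10 spots of this probe on 1 array was at most 0.17 on the log2 scale, below the SD between mice, which was 0.24 for controls and 0.22 for the Gen group.

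Tgfa, which encodes transforming growth factor alpha, showed little difference at either of its probes, whose starts lie 2647 bases apart on chromosome 6. The brighter, A_51_P415126, read 322.2, 374.1, 337.1 and 426.4 in controls and 414.7, 290.7, 401.9 and 426.7 in Gen-treated mice. The groups overlapped, with Gen 2 the lowest of all 8 mice. The log2 fold change was 0.06 (SE 0.16, adjusted p = 0.838 in limma). The dimmer probe, A_52_P555423, was above background in 2 controls and all 4 Gen-treated mice and had a log2 fold change of 0.15 (SE 0.20, adjusted p = 0.680 in limma).

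Areg, which encodes amphiregulin, was set apart by 1 control. Its signals were 937.8, 295.3, 285.4 and 277 in controls and 549.1, 513, 532.3 and 398 in Gen-treated mice. Control 1 was the highest of all 8 arrays, while the other 3 controls lay close together and below every Gen-treated mouse. With all 8 arrays the log2 fold change was 0.36 (SE 0.39, adjusted p = 0.599 in limma; exact permutation p = 0.429, 2-sided). Without control 1 it was 0.79, with an adjusted p of 0.0591 in limma, and without control 4 it was 0.20, so that 1 mouse moved the Areg difference by more than its SE.

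The known sources of Areg, Ereg and Btc in the ovary make the ovarian markers relevant here. Summed signals of 13 marker genes of cumulus, granulosa and luteal cells were 4865 to 29990 in controls and 34120 to 142700 in Gen-treated mice, with no overlap. Hsd3b1 alone read 900.4 to 18610 in controls and 21860 to 93440 in Gen-treated mice, the largest part of each Gen sum. Of the 13 genes, 5 were called, all higher, beside 17.3% of all 27669 genes on the array. Of the 12 above background in all 4 mice of a group, 4 were called, beside 5.34% of 19247 such genes. When dim probes were left out of the fit, 0 of the 13 were called. The called genes included Cyp11a1, the enzyme that starts steroid synthesis (adjusted p = 0.0236 in limma, and 0.0682 without dim probes). All 13 markers were well above background on at least 1 array. The genes of cumulus expansion in that list, Tnfaip6, Ptx3 and Has2, had log2 fold changes of −0.09, 0.15 and 0.02, and none was called. The sum of 7 oocyte and embryo markers was 389.4 to 4697 in controls and 4858 to 31220 in Gen-treated mice, with the highest control value in control 1. Control 1 had an ovarian marker sum of 7193, within the range of the other controls. Control 3 had the highest ovarian marker sum of the controls (29990) and an oocyte and embryo sum of 3986, with an Areg signal of 285.4. The part of these cells in the Areg and Ereg signals was not tested.

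Ereg, which encodes epiregulin, was at or near the detection limit in all mice. A_51_P171215, at chr5:91080900-91080961 on the plus strand, read 10.65, 8.949, 17.06 and 7.496 in controls and 3.795, 3.33, 3.999 and 5.458 in Gen-treated mice. The Gen signals were all lower, but no array was well above background, so no fold change is given, and the adjusted p of 0.0236 in limma has to be read beside the shift of all such probes. The other probe named Ereg, A_51_P157223, read 13.0, 39.9, 15.4 and 19.4 in controls and 42.6, 37.4, 31.2 and 38.8 in Gen-treated mice. It was well above background on all 4 Gen arrays and on no control array, while control 2 had a signal as high as those of the Gen-treated mice. Its adjusted p was 0.111 in limma (exact permutation p = 0.114, 2-sided), and the detection limit of the control arrays allowed no bound on its fold change. This probe starts 40745 bases from the first one and on the opposite strand (chr5:91040155-91040214, minus strand), and the files assign it to a cDNA clone, so its signal cannot be taken as that of the Ereg transcript.

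Hbegf and Btc, whose products also bind Erbb4, gave small differences with overlapping groups. Hbegf, the heparin-binding ligand, read 1295, 1841, 1839 and 1889 in controls and 1552, 1191, 1774 and 1853 in Gen-treated mice, which gave a log2 fold change of −0.11 (SE 0.19, adjusted p = 0.749 in limma). Control 1 and Gen 2 were the low values. Btc, which encodes betacellulin, read 131.6, 101.9, 93.95 and 99.55 in controls and 106.7, 107.5, 101 and 149.8 in Gen-treated mice at A_52_P672689, a log2 fold change of 0.12 (SE 0.17, adjusted p = 0.704 in limma). Its other probe, A_51_P138429, was above background only in Gen 4, the mouse that was also highest at the first probe.

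**Figure D2:**
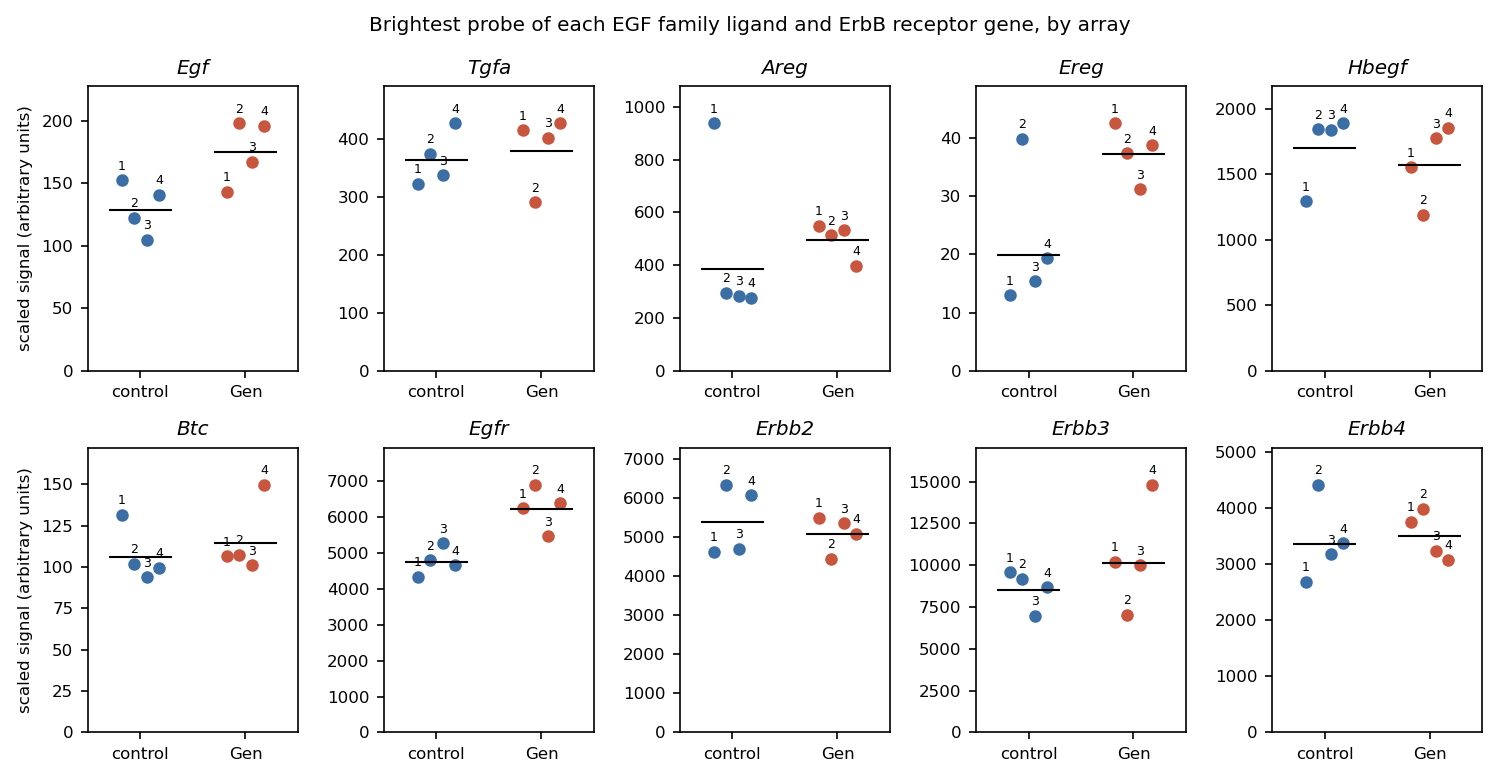
Scaled signal (arbitrary units, linear axes from 0, each panel with its own scale) of the brightest probe of each of the 10 genes in the 4 controls (blue) and 4 Gen-treated mice (red), with replicate numbers and the mean of log2 signals as a bar. Egfr is the gene whose groups do not overlap, control 1 stands above all others at Areg, and the Ereg panel shows A_51_P157223, which was not above background in controls and lies on the strand opposite to the other Ereg probe.

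Egfr, the receptor that all 6 ligands bind, was higher in Gen-treated mice at each of the 5 probes above background, but no probe passed the threshold. The bright 10-spot probe A_52_P106259 (chr11:16865821-16865880, plus strand) read 4338, 4799, 5279 and 4652 in controls and 6242, 6904, 5468 and 6388 in Gen-treated mice. Every Gen-treated mouse lay above every control, with Gen 3 and control 3 closest to each other. The log2 fold change was 0.39 (SE 0.12, 95% confidence interval 0.11 to 0.67), that is 1.31-fold, with an unadjusted p of 0.0115 and an adjusted p of 0.0645 in limma. The exact permutation p was 0.0286, the smallest that 4 mice against 4 allow in a 2-sided test. Groups without overlap were seen at 12.4% of the 24920 array probes with 8 values above background, and at 1 of the 15 member probes of that kind. The SD of the spots of this probe within 1 array was at most 0.057 on the log2 scale, against 0.12 between controls and 0.14 between Gen-treated mice. The adjusted p was 0.0339 with an intensity trend and robust moderation, which called the probe, and between 0.0640 and 0.143 when 1 array was left out. Without dim probes the adjusted p was 0.118 in limma, and it reached 0.192 among the alternatives with all 8 arrays. In the methods' t-test the unadjusted p was 0.00531 and the adjusted p was 0.0630.

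The other 4 Egfr probes above background lie upstream and downstream of it on chromosome 11. A_52_P175190, which starts 3815 bases downstream, read 331.5, 213.1, 245.7 and 207.5 in controls and 335.7, 357.2, 284 and 599.8 in Gen-treated mice, which gave a log2 fold change of 0.63 (SE 0.26, adjusted p = 0.155 in limma). Gen 4 was the highest, and control 1 lay above Gen 3. A_52_P674338, 1634 bases upstream, read 99.32, 100.8, 135.8 and 97.59 in controls and 141, 131.7, 122.1 and 154.5 in Gen-treated mice, which gave a log2 fold change of 0.35 (SE 0.15, adjusted p = 0.163 in limma). Here control 3 lay above Gen 2 and Gen 3. These probes carry the name of the same gene and were read in the same mice, so they are not independent of each other. A_52_P175190 is assigned to a cDNA clone, and whether it reads the Egfr transcript was not checked.

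The remaining pair of Egfr probes lies further upstream and is assigned in the files to another Egfr transcript record than A_52_P106259. The 10-spot probe A_51_P392242 read 637.5, 774.4, 625.3 and 552.2 in controls and 710.6, 1143, 719.9 and 857.1 in Gen-treated mice, which gave a log2 fold change of 0.39 (SE 0.19, adjusted p = 0.218 in limma). Gen 2 was the highest and 2 Gen-treated mice lay below control 2. A_52_P56471, 3840 bases further upstream, had the smallest difference of the Egfr probes above background, 0.11 (SE 0.20, adjusted p = 0.756 in limma), and without Gen 2 it was −0.06. A probe that carries the name Egfr but starts 127907 bases upstream of the others, A_52_P5855, was above background on 1 array, control 1 (87.2), and read 4.54 to 14.4 on the other 7, so that its exact permutation p of 0.0286 (2-sided) comes mostly from signals near background.

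**Figure D3:**
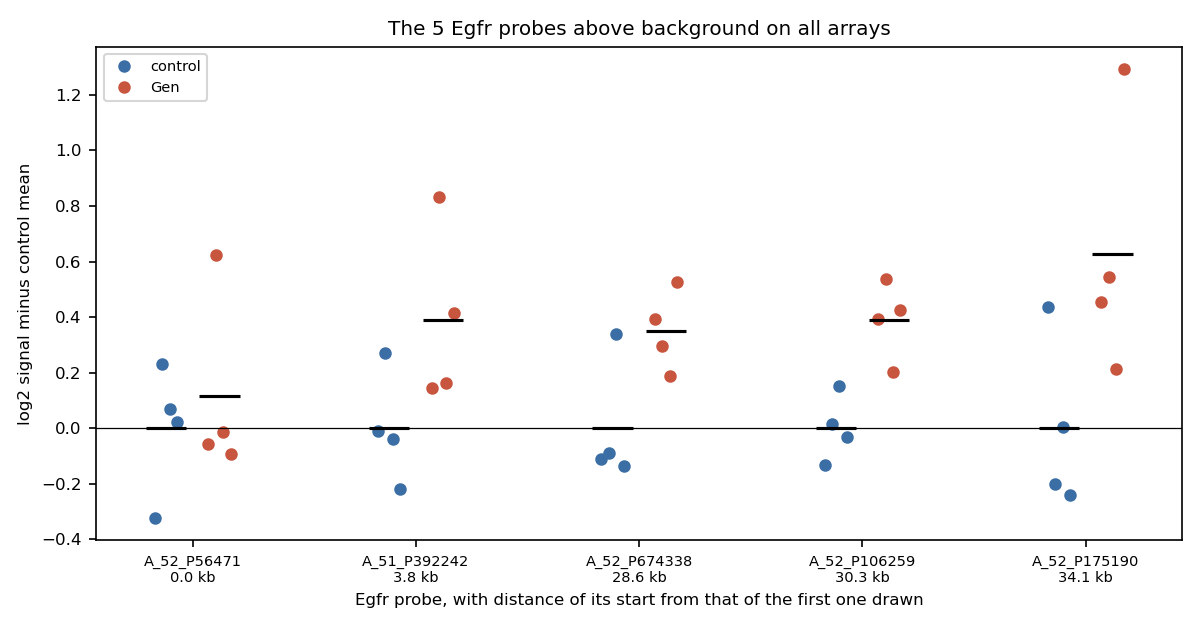
Log2 signal minus the control mean of the probe, for the 5 Egfr probes measured above background in all 8 mice, in order along the gene with the distance of their starts in kb. Blue points are the 4 controls, red points the 4 Gen-treated mice and bars the group means, which lie between 0.11 and 0.63 for Gen, and the groups are apart at A_52_P106259 alone.

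For Erbb2, the receptor without a known ligand, the groups overlapped at both probes. The 10-spot probe A_52_P49250 read 4627, 6345, 4702 and 6082 in controls and 5502, 4452, 5359 and 5085 in Gen-treated mice, which gave a log2 fold change of −0.08 (SE 0.15, 95% confidence interval −0.43 to 0.26, adjusted p = 0.765 in limma). Controls spread more widely than Gen-treated mice here. The kinase-region probe A_51_P216179, printed above, gave −0.13 (SE 0.15, adjusted p = 0.640 in limma).

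Erbb3 had 5 probes, none called, and they did not give the same direction. The brightest, A_52_P432949 (chr10:128069461-128069520, minus strand), read 9578, 9205, 6970 and 8672 in controls and 10210, 7053, 9999 and 14820 in Gen-treated mice, which gave a log2 fold change of 0.25 (SE 0.23, adjusted p = 0.523 in limma). The value of Gen 4 was the highest, and without that mouse the difference was 0.07. The other 4 probes, assigned to another transcript record than A_52_P432949, lay at log2 fold changes from −0.53 to 0.01. Of these, A_51_P414813 and A_51_P342050 were above background on 3 control arrays and A_52_P133607 on 2. The overlapping pair printed above gave different readings from the same RNA. A_51_P342050 read 48.3, 82.8, 64.2 and 74.8 in controls and 72.6, 55.8, 64.3 and 55.5 in Gen-treated mice. A_51_P488243 read 47.8, 71.2, 178.7 and 50.2 in controls and 42.2, 24.9, 83.3 and 81.0 in Gen-treated mice. Control 3 was the highest array at the second of them and not at the first, although 40 of 60 bases are the same. The control 3 signal at the first probe, 64.2, was below the lowest signal that passed the background test on that array, 65.86. The log2 fold change was −0.53 (SE 0.53) at the second probe against −0.10 (SE 0.19) at the first.

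Erbb4, the receptor shared by Ereg, Hbegf and Btc, was read by 1 probe above background on all 8 arrays. A_51_P283698 gave 2690, 4418, 3175 and 3370 in controls and 3758, 3991, 3243 and 3080 in Gen-treated mice, which gave a log2 fold change of 0.06 (SE 0.17, 95% confidence interval −0.34 to 0.46, adjusted p = 0.861 in limma). Both the lowest and the highest mouse were controls. A_51_P396034, the probe related to those of Erbb2 and Erbb3, was not above background on any array and had an adjusted p of 0.0537 in limma, and A_52_P608535 was above background only in Gen 3 (60.1). The 2 further Erbb4 probes therefore add no level of this transcript.

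Other genes of the pathway were taken from 5 lists. Of 66 genes found on the array, 61 were above background in all 4 mice of a group, and 1 of the 61 was called in limma, that is 1.64%, beside 5.34% of 19247 such genes on the array. Over all 66 genes 2 were called, beside 17.3% of all 27669 genes. When dim probes were left out of the fit 0 were called, and 5 of the 61 had an unadjusted p under 0.05, beside 19.7% of the 19247 genes. The median log2 fold change of the 61 genes was −0.0016, against 0.03 for all 19247, and 30 of the 61 were higher in Gen-treated mice.

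Among the other ErbB ligands, Nrg4, a neuregulin that binds Erbb4, was the one with a clear level. It read 1095, 1014, 646.1 and 788.6 in controls and 820.3, 713.4, 789.8 and 726.1 in Gen-treated mice, which gave a log2 fold change of −0.19 (SE 0.18, adjusted p = 0.546 in limma), with overlapping groups. Epgn, which encodes epigen, was near background (log2 fold change −0.05, adjusted p = 0.928 in limma). The brightest Nrg1 probe was above background in 3 Gen-treated mice and no control, although its signals were alike in both groups (adjusted p = 0.949 in limma). They were 15.86, 28.23, 25.77 and 23.54 in controls and 18.88, 30.61, 20.26 and 21.36 in Gen-treated mice, so the detection count reflects the higher limit of the control arrays. Nrg3 was called, at an adjusted p of 0.0275 in limma, but was below background on all 8 arrays, like the called Ereg probe.

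Genes that act before and after the receptors showed few differences. Of 8 genes of sheddases and ligand processing, 7 were above background and 0 were called, and 0 had an unadjusted p under 0.05. They include Adam17, the main sheddase of Tgfa, Areg and Hbegf, with a log2 fold change of 0.09. Adam9 had the smallest p of that list (log2 fold change 0.39, SE 0.26, adjusted p = 0.382 in limma), and Gen 4 was its highest array. Of 22 receptor adaptors and members of the kinase cascade, all above background, 0 were called and 1 had an unadjusted p under 0.05. That gene, Map2k2, which encodes the kinase MEK2, read 12880, 14610, 18360 and 18990 in controls and 11440, 12080, 10600 and 10090 in Gen-treated mice. All Gen-treated mice lay below all controls, with a log2 fold change of −0.54 (SE 0.15) and an adjusted p of 0.0509 in limma. Without dim probes the adjusted p of Map2k2 was 0.111. Over all alternatives its adjusted p lay between 0.0311 and 0.589 and its log2 fold change between −0.64 and −0.30. Map2k1, which encodes the related MEK1, had a log2 fold change of −0.09. In this list the groups were also apart at Sos1, higher in Gen-treated mice (log2 fold change 0.23, adjusted p = 0.258 in limma). Groups without overlap were seen at 12.4% of the 24920 array probes with 8 values above background.

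Of 17 receptor and pathway inhibitors, 16 were above background, 1, Dusp4, was called, and 4 had an unadjusted p under 0.05. The other 3 were Cbl, which encodes a ubiquitin ligase of Egfr (log2 fold change −0.41, SE 0.12, adjusted p = 0.0554 in limma), Spred1, an inhibitor of the cascade (0.38, SE 0.13, adjusted p = 0.0915) and Socs4 (0.32, SE 0.13, adjusted p = 0.158). Without dim probes their adjusted p was 0.111, 0.149 and 0.211 in limma. These values are of the brightest of 2 Cbl, 3 Spred1 and 3 Socs4 probes, and the other probes are not shown. The groups did not overlap at Cbl, lower in Gen-treated mice, or at Spred1, higher in them, beside 12.4% of the array probes given above. Dusp4 encodes a phosphatase that inactivates ERK and is itself induced by ERK signaling. At its brighter probe it read 440.1, 416.6, 397 and 359.1 in controls and 464, 752, 691.3 and 935.4 in Gen-treated mice. All Gen-treated mice lay above all controls, Gen 1 by little. The log2 fold change was 0.78 (SE 0.21, 95% confidence interval 0.29 to 1.26), 1.71-fold, with an adjusted p of 0.0398 in limma. The call was lost without dim probes (adjusted p = 0.102) and when any 1 of the 8 arrays was left out (adjusted p between 0.0633 and 0.0966), and over all alternatives the adjusted p lay between 0.0323 and 0.193. The dimmer Dusp4 probe had a log2 fold change of 0.47 and an adjusted p of 0.0870 in limma. Errfi1, which encodes an inhibitor of Egfr itself, had a log2 fold change of −0.19.

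Of 15 immediate-early and ERK target genes, 14 were above background and 0 were called, and 0 had an unadjusted p under 0.05. Egr3 had the smallest p (log2 fold change 0.49, SE 0.26, adjusted p = 0.271 in limma). Fos and Egr1, which follow ERK activity within minutes, had log2 fold changes of 0.42 and 0.48, and control 3 was as high at both as the highest Gen-treated mouse. Fos read 391.6, 339.6, 1109 and 338.6 in controls and 578.8, 426.3, 602.3 and 1087 in Gen-treated mice. At Fos the groups overlapped over almost their whole range.

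**Figure D4:**
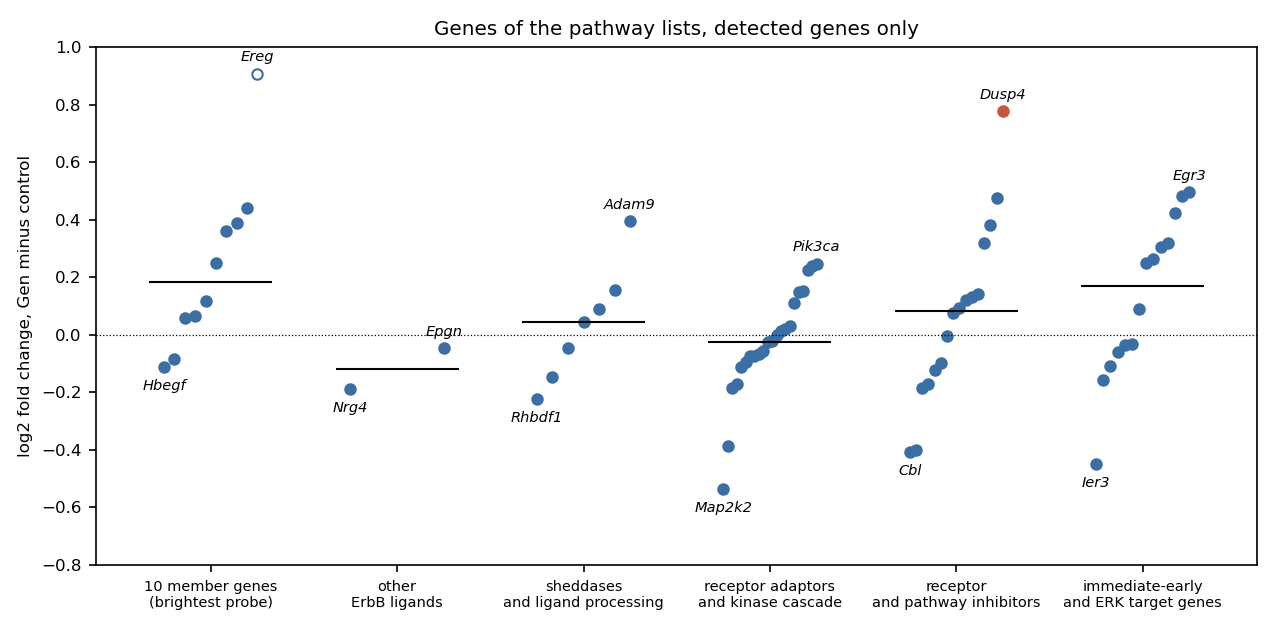
Log2 fold change (Gen minus control) of the brightest probe of each of the 10 EGF family and ErbB genes and of the genes of 5 pathway lists that were above background on all 4 arrays of a group, with the median of each list as a bar. Red marks the 1 gene called, Dusp4 at 0.78, the open point labeled Ereg is A_51_P157223, a probe on the strand opposite to the other Ereg probe and not above background in controls, and the lowest and highest gene of each list are named.

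The tissue was read as oviduct in both groups. All 6 markers of the secretory epithelium, all 6 of ciliated cells, all 6 of smooth muscle and all 5 of stroma were above background on all 8 arrays, and their sums overlapped between the groups. All 6 smooth muscle markers had a lower mean in the Gen group (median difference −0.26 on the log2 scale), and none was called. Of 9 markers of stratified squamous epithelium, 5 (Krt5, Krt14, Krt13, Trp63 and Sprr1a) were above background on all 8 arrays. Their log2 fold changes were 0.47, 0.42, −0.31, −0.09 and −0.03, and none of these genes was called. Dsg3, Ivl, Krt6a and Sprr3 were above background on no array. The sum of all 9 was 2944 to 3896 in controls and 2589 to 3513 in Gen-treated mice. Summed markers of B cells and plasma cells (8251 to 23890 in controls, 35810 to 52930 in Gen-treated mice), of macrophages (13580 to 17560 against 18410 to 27770) and of T cells and natural killer cells (1189 to 1466 against 1485 to 1788) did not overlap. The part of these cells in the Egfr, Dusp4 and other signals was not tested.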

How the data were processed

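For each of the 8 1-colour arrays the authors deposited the scanner's file, made with Agilent Feature Extraction 9.5. Its processed signal, a linear intensity corrected for background but not scaled between arrays, was used. The deposited series table had the same values (45018 spots). Positions are the file's, on mm7, and no annotation of that build was used here.

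Control spots (1639) and outlier spots were left out, log2 signals of a probe averaged and arrays scaled to their 75th percentile. Groups were compared with limma 3.58.1 in R 4.3.3 (lmFit, eBayes), without a filter on dim probes. Fits were tested on simulated data. Plots were made with matplotlib 3.10.9. Each mouse was 1 replicate, and their number limits the precision.

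The members and lists were chosen with earlier results of these data known. Named were all probes of the 10 genes, the other ErbB ligands and, per list, up to 4 called genes above background or else the gene with the smallest p. Adam17, Map2k1, Errfi1, Cbl, Spred1, Socs4, Fos, Egr1, Tnfaip6, Ptx3, Has2 and Cyp11a1 were named after their values were seen. So were Sos1, Hsd3b1, Krt5, Krt14, Krt13, Trp63 and Sprr1a. A pathway gene's brightest probe stood for it, with symbols from GRCm38.p6. Alternatives were other scalings (quantile, none), normexp (offset 50), a dim-probe filter, outlier spots kept, a trend with robust moderation, the methods' t-test, an unadjusted p under 0.01, a replicate block, averaging a gene's probes, and each array left out.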

Additional observations from a re-analysis of the deposited data

Results flagged for a closer look

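In groups of 4 mice, 1 value stood far from the other 3 in 9 of 66 groups examined (25 member probes and 8 further genes, each in both treatments), by a gap that took up most of the range of the group. Chance alone gives this in about 1 in 20 groups. Control 1 was that mouse in 3 of them: high at Areg (937.8, nearest control 295.3), low at Hbegf (1295, nearest 1839) and low at Tgfa A_52_P555423 (43.01, nearest 71.27). Control 3 was high at Egfr A_52_P674338 (135.8, nearest 100.8). Gen 2 was low at Tgfa A_51_P415126 (290.7, nearest 401.9) and high at Egfr A_52_P56471 (877.3, nearest 564.3). Gen 4 was high at Btc A_52_P672689 (149.8, nearest 107.5), at Btc A_51_P138429 (35.56, nearest 3.69, the 1 array above background) and at Adam9 (31460, nearest 17730).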

How the results depend on the processing

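The 1 member probe called (Ereg A_51_P171215, below background) was joined by Egfr A_52_P106259 with a trend and robust moderation (2 called). At an unadjusted p under 0.01 there were 2 in limma (Ereg A_51_P171215 and Erbb4 A_51_P396034, both below background; 7077 of all probes) and 2 in the methods' t-test (Ereg A_51_P171215 and Egfr A_52_P106259; 6098 of all probes). With quantile normalization, no scaling, normexp, a filter on dim probes, the t-test with Benjamini-Hochberg adjustment or the replicate block, 0 were called, and 0 to 2 with 1 array left out. Of the pathway genes, 4 were called with the trend, 4 passed an unadjusted p under 0.01, 5 were called when a gene's probes were averaged, and 0 with quantile normalization, no scaling, normexp, the dim filter, the adjusted t-test or the replicate block (0 to 2 with 1 array left out). Of all probes, 6674 in the fit described, 178 were called with quantile normalization, 640 without scaling, 251 with normexp, 321 with the dim filter, 0 with the adjusted t-test, 1 with the replicate block and 1 to 7130 with 1 array left out (97 without control 1, and 3, 2 and 1 without Gen 1, 2 and 3). The cause was not tested. Mice with the same number did not deviate together (correlations −0.08, 0.11, −0.02 and −0.18), so the numbers were not taken as pairs.

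Differences near 0 changed sign. Without scaling, where the median of probes above background on all 8 arrays was 0.24, Hbegf (0.13), Erbb2 (0.11 and 0.16), Erbb3 A_51_P414813 (0.19) and A_51_P342050 (0.14), Epgn (0.19), Nrg1 (0.21) and Nrg4 (0.052) were above 0 and below that median. With quantile normalization Tgfa A_51_P415126 was −0.0011, Btc A_51_P138429 0.59 and Erbb3 A_52_P133607 −0.19. With normexp Tgfa A_52_P555423 was −0.071, Btc A_52_P672689 −0.15, Erbb3 A_52_P133607 −0.28 and Erbb4 A_52_P608535 −0.11. With 1 array left out the ranges that crossed 0 were −0.045 to 0.23 (Tgfa A_52_P555423), −0.24 to 0.021 (Hbegf), −0.011 to 0.22 (Btc A_52_P672689), −0.055 to 0.19 (Egfr A_52_P56471), −0.18 to 0.045, −0.25 to 0.0046 and −0.16 to 0.14 (Erbb3 A_51_P414813, A_51_P342050 and A_52_P133607), −0.048 to 0.19 and −0.65 to 0.61 (Erbb4 A_51_P283698 and A_52_P608535), −0.21 to 0.16 (Epgn) and −0.20 to 0.072 (Nrg1). The other 4 Egfr probes above background and Egf, Areg and Dusp4 stayed above 0 in every alternative. Signals near background set the limit for Ereg and for the dim probes of Btc, Egfr and Erbb4.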
